A study of Mus musculus with 10 samples.

Results

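Small nucleolar RNAs (snoRNAs) were followed in day 6 skin wounds of diabetic mice that had received a mimic of the microRNA miR-132 or a control mimic. All genes were taken whose feature on the array carries a single platform gene symbol beginning with Snord, Snora or Scarna and a number, and whose mean over the 10 arrays exceeded 5 on the log2 scale. The brightest feature stood for each gene. This gave 64 genes of the 30142 that a feature with 1 gene symbol names, among them 41 C/D box genes (Snord), 17 H/ACA box genes (Snora) and 6 small Cajal body RNA genes (Scarna). The array design holds 117 snoRNA features, of which 72 carry 1 gene symbol and name 68 genes. The 45 features shared with other genes were not used.

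SnoRNAs are short, stable nuclear RNAs that pair with a target RNA and bring an enzyme to it. C/D box snoRNAs carry the methyltransferase fibrillarin and guide the 2′-O-methylation of ribosomal RNA, while H/ACA box snoRNAs carry the pseudouridine synthase dyskerin and guide pseudouridylation. Small Cajal body RNAs carry either or both boxes and direct the same modifications to the RNAs of the spliceosome. In mammals most of them are not transcribed on their own but are cut from introns of host genes, many of which encode ribosomal proteins or translation factors.

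All 10 arrays came from male db/db [BKS(D)-Leprdb/JOrlRj] mice aged 11 weeks on a C57BL/6 background, which lack a working leptin receptor. Each mouse received 2 full-thickness wounds on the back with a 4 mm punch, through the muscle layer under the skin. The miR-132 group (n = 5) received 0.5 nmol miR-132 mimic per wound and the control group (n = 5) received 0.5 nmol control mimic. Either mimic was mixed with the delivery reagent MaxSuppressor In Vivo RNA-LANCEr II in 100 µl and injected at 4 points of the wound edge directly after wounding. All animals were given buprenorphine, an opioid painkiller. Total RNA of wound-edge biopsies was hybridised to Clariom D arrays. The labels give 5 mice per group and leave unsaid if a sample holds 1 or both of the wounds. If samples of a group shared more than the treatment, the p-values would measure only the spread between them. No healthy or uninjured skin was among the arrays.

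The biopsies carried the defining transcripts of skin, with the keratins Krt5, Krt14, Krt1 and Krt10 at the upper limit of the values on at least 8 of the 10 arrays. At that limit the groups could not be compared. The keratinocyte marker below it, Trp63, averaged 7.48 ± 0.61 with miR-132 and 8.16 ± 0.12 in controls (SD, n = 5 each), a difference of -0.68 ± 0.26 (SE; limma p of 0.0258, adjusted p of 0.593). Other cell types were present in amounts that varied between arrays. The 4 adipocyte markers averaged 8.56 to 11.72 with miR-132 and 8.49 to 10.98 in controls, and the 4 muscle markers 10.15 to 13.68 and 10.76 to 13.44. The 4 neutrophil markers averaged 13.74 to 14.32 with miR-132 and 13.92 to 15.11 in controls. Of these, S100a8 and S100a9 each read the upper limit on 9 of the 10 arrays, which narrows that range. The other neutrophil markers, Csf3r and Cxcr2, averaged 7.32 ± 0.41 and 8.98 ± 0.62 with miR-132. In controls they averaged 8.24 ± 1.14 and 9.54 ± 0.71 (SD, n = 5 each). Of the neuronal markers, Snap25 and Rbfox3 lay below the level filter for testing and Tubb3 and Map2 above it. The part of these cell types in the snoRNA levels was not tested. In biopsies, fewer cells of a type and less RNA per cell cannot be told apart. On miR-132 replicate 2 the distance between the 10th and the 90th percentile of all features was 4.41 log2 units, against 4.63 to 4.92 on the other miR-132 arrays and 4.81 to 5.03 on the control arrays. Hybridisation spike-ins lay at 10.80 ± 0.20 on miR-132 arrays and 10.54 ± 0.07 on control arrays (SD, n = 5 each).

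The 64 snoRNA genes ranged from 5.12, just above the level that chose them, to 19.93, the upper limit of the values. Their median level was 11.71, against medians of 6.89 on the miR-132 arrays and 6.97 on the control arrays for the 12719 tested genes with a mean above 5. The genes were chosen by these levels, which are given as a description only. The 41 C/D box genes had a median level of 12.23 and ranged from 5.12 to 19.93. The 17 H/ACA box genes had a median of 11.49 and ranged from 6.16 to 17.90, and the 6 small Cajal body RNA genes a median of 11.11, from 5.15 to 12.14. Probes differ in brightness at equal amounts of RNA, so an order of these levels is not an order of abundance. Just inside the level of 5 stood Snord91a at 5.12, Scarna8 at 5.15 and Snora78 at 6.16. Below it stood Snord64 at 4.34, Snord88c at 4.07, Snord85 at 3.77 and Snora35 at 3.37. Snord64 lies in the imprinted region that also holds the brain-rich Snord115 and Snord116 clusters, and Snora35 is known as a brain-rich snoRNA in mouse.

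**Figure D1:**
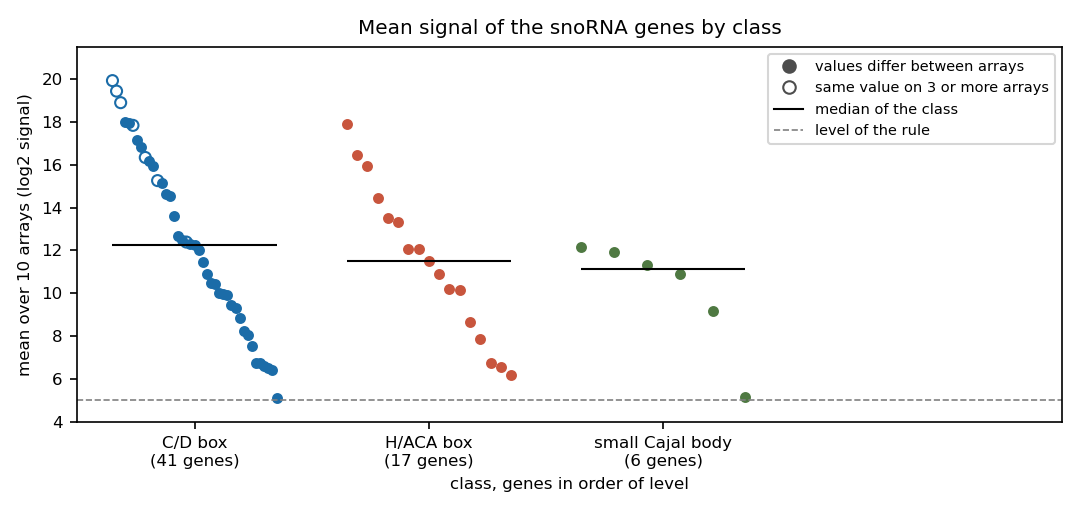
Mean log2 signal over all 10 arrays (vertical axis) of each snoRNA gene, in order of level within its class; black lines are class medians and the dashed line is the level of 5 that chose the genes. Open circles are the 7 genes with the same value on 3 or more arrays, which lie between 12.39 and 19.93.

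The brightest C/D box gene, Snord69, read 19.93 on all 10 arrays, the upper limit of the deposited values, so its level is only known to be at or above that limit. Snord16a, inside the ribosomal protein gene Rpl4, averaged 19.40 ± 0.19 with miR-132 and 19.48 ± 0.06 in controls (SD, n = 5 each). Next came Snord42a, inside Rpl23a, at 18.70 ± 0.74 with miR-132 and 19.10 ± 0.38 in controls. Several bright genes carried the same value on many arrays. Snord87 read 17.82 on 9 of the 10 arrays and 18.05 on miR-132 replicate 4, and Snord82, inside the nucleolin gene Ncl, read 16.30 on 8 arrays. Such repeats occurred in 7 of the 64 snoRNA genes. They also occurred in 9.21% of the 12719 tested genes above 5, and in 96.8% of those with a mean above 18. A difference between groups can hardly be seen at such values.

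The brightest H/ACA box gene was Snora21, inside Rpl23, at 17.88 ± 0.60 with miR-132 and 17.92 ± 0.36 in controls (SD, n = 5 each). Snora73b averaged 16.48 ± 1.01 with miR-132 and 16.46 ± 0.54 in controls, and its close relative Snora73a 14.49 ± 1.20 and 14.43 ± 0.52. Both lie inside the noncoding gene Snhg3 and are near-identical copies of the RNA also called U17 or E1, which acts in the cleavage of the ribosomal RNA precursor. Their probes may read each other's RNA. The same holds for Snord49a and Snord49b, which share the host 2410006H16Rik, and for the features of Snord58b, of which the second read 17.02 ± 1.20 with miR-132 and 17.26 ± 0.34 in controls, nearly the values of the first. The brightest small Cajal body RNA was Scarna10, an RNA with both boxes known in human cells as U85 and directed at the U5 RNA of the spliceosome, at 12.26 ± 0.83 with miR-132 and 12.02 ± 0.18 in controls.

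Treated wounds were first compared gene by gene, to ask whether snoRNA levels differ with the mimic. No snoRNA gene passed an adjusted p of 0.05 in limma over all 17359 genes tested, and 0.0% of the genes tested did. At an unadjusted limma p under 0.05 stood 0 of the 64 snoRNA genes and 8.13% of all genes tested (5.7% lower and 2.43% higher with miR-132). In 0 of the 64 did the 5 miR-132 values and the 5 control values fail to overlap, against 0.945% of all genes tested (0.657% lower and 0.288% higher). By group means, 28 snoRNA genes were lower with miR-132, 35 were higher and Snord69 showed no difference. Over all genes tested 53.8% were lower and 44.8% higher. These counts moved with the scaling: 22 of the 64 snoRNA genes and 45.3% of all genes were lower after quantile normalization, and 34 and 70.3% with each array centred on its median. The median difference, miR-132 minus control, was 0.02 for the snoRNA genes and -0.02 for all genes tested. The smallest limma p of a snoRNA gene was 0.0689 (adjusted p of 0.633), for Snora19.

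The differences were then set out by class. Among the 41 C/D box genes 20 were lower and 20 higher with miR-132, with a median difference of 0.00 and a range of -0.65 to 0.62. Among the 17 H/ACA box genes 7 were lower and 10 higher, with a median of 0.06 and a range of -0.20 to 0.71. One of the 6 small Cajal body RNA genes was lower and 5 were higher, with a median of 0.17. The typical standard error of a single snoRNA difference was 0.38 log2 units at the median. It ran from below 0.10 for genes with little spread, such as Snord16a and Snord91a, to 0.64 for Snord49a. No interval was computed for the class medians.

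**Figure D2:**
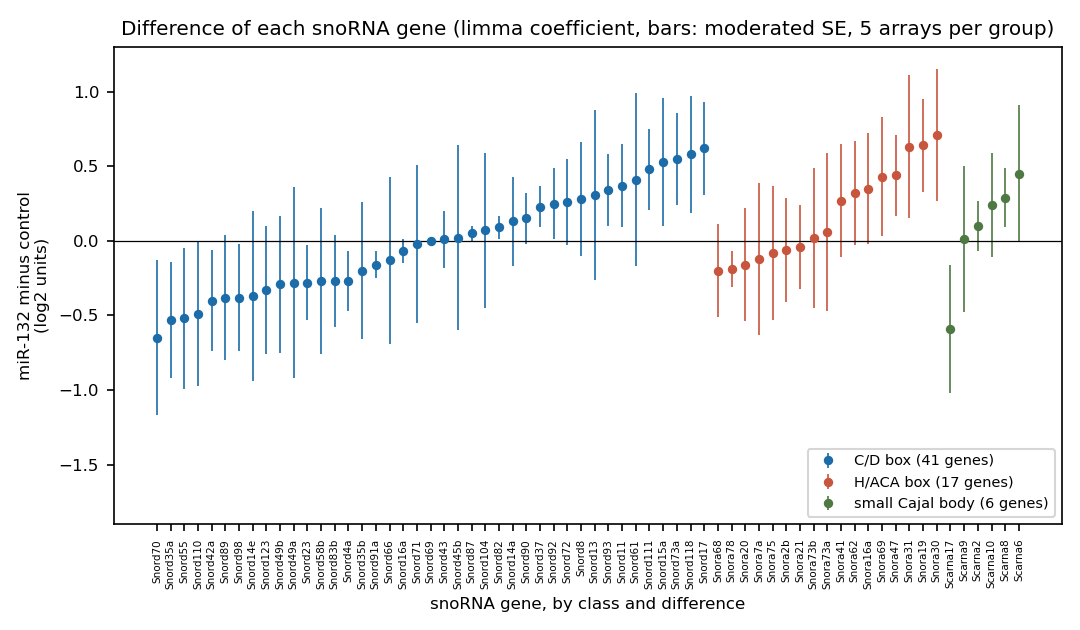
Difference of each snoRNA gene between the groups (vertical axis, miR-132 minus control, log2 units) with its moderated standard error (bars, 5 arrays per group), ordered within each class. The C/D box genes split into 20 below and 20 above 0, with Snord69 at 0, and the H/ACA box genes reach from -0.20 to 0.71.

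Among the C/D box genes with the smallest p, Snord17, inside the sorting nexin gene Snx5, read 17.13, 16.18, 15.55, 16.81 and 16.77 on the 5 miR-132 arrays. It read 16.01, 16.46, 15.49, 15.36 and 16.02 on the 5 control arrays. Replicates 1, 4 and 5 of miR-132 exceeded every control value, and the groups overlapped through replicates 2 and 3 of miR-132; the difference was 0.62 ± 0.31 (SE; limma p of 0.0763, adjusted p of 0.639). Snord73a, inside the ribosomal protein gene Rps3a1, read 11.17, 9.71, 9.53, 10.60 and 10.21 with miR-132 and 9.98, 9.89, 9.53, 9.74 and 9.31 in controls. Here too replicates 1, 4 and 5 of miR-132 stood above all controls, and the difference was 0.55 ± 0.31 (SE), or 0.32 without replicate 1 of miR-132. Snord111, inside the splicing factor gene Sf3b3, read 13.10, 11.47, 12.26, 12.76 and 12.78 with miR-132, against 11.97, 12.03, 12.03, 11.91 and 12.02 in controls. Its 5 controls were nearly equal, with a SD of 0.05, while the miR-132 arrays had a SD of 0.64 and fell on either side of them, with 4 above and 1 below. The difference was 0.48 ± 0.27 (SE; limma p of 0.107, adjusted p of 0.666).

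Snord118 and Snord13 are C/D box RNAs with genes of their own and with roles in ribosome making other than methylation. Snord118, the U8 RNA needed for processing of the large subunit precursor in frog oocytes, read 12.33, 11.97, 12.33, 13.67 and 13.08 with miR-132 and 12.59, 12.73, 12.33, 11.48 and 11.34 in controls. The highest values were on replicates 4 and 5 of miR-132 and the lowest on controls 4 and 5, with a difference of 0.58 ± 0.39 (SE). A second, dim feature of Snord118 averaged 4.54 ± 0.55 with miR-132 and 4.31 ± 0.20 in controls (SD, n = 5 each). Snord13, the U13 RNA that guides acetylation of the small subunit RNA in human cells, read 12.79, 10.32, 10.81, 12.84 and 11.29 with miR-132, and 12.06, 12.24, 10.70, 10.64 and 10.87 in controls. Both groups held arrays near 10.7 and arrays above 12, and the difference of 0.31 ± 0.57 (SE) was smaller than its error. Snord11 (0.37 ± 0.28), Snord93 (0.34 ± 0.24) and Snord37 (0.23 ± 0.14), inside the elongation factor gene Eef2, were the other C/D box genes among the 12 with the smallest p on the higher side.

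On the lower side, Snord70, inside Nop58, the gene of a core protein of C/D box particles, read 15.36, 12.48, 14.09, 15.28 and 13.94 with miR-132. In controls it read 15.65, 14.95, 14.53, 14.48 and 14.79. Replicate 2 of miR-132 gave by far the lowest value, and the difference of -0.65 ± 0.52 (SE) was -0.21 without it and 0.03 without replicates 2 and 5 of miR-132. Snord35a, which lies inside Rpl13a and takes part in lipotoxic stress in hamster and mouse cells, read 12.79, 11.19, 11.75, 13.28 and 12.06 with miR-132 and 13.21, 13.18, 12.18, 12.39 and 12.75 in controls. Its miR-132 values lay on both sides of the controls, with a difference of -0.53 ± 0.39 (SE). Snord55 read 18.67, 16.68, 16.82, 18.81 and 17.69 with miR-132 and 18.72, 18.91, 17.95, 17.51 and 18.18 in controls. Its replicates 1 and 4 of miR-132 matched the high controls and replicates 2 and 3 lay below every control, for a difference of -0.52 ± 0.47 (SE). The other C/D box genes among the 12 with the smallest p on this side were Snord110 (-0.49 ± 0.48), Snord42a (-0.40 ± 0.34), Snord98 (-0.38 ± 0.36), Snord23 (-0.28 ± 0.25), Snord4a (-0.27 ± 0.20), Snord91a (-0.16 ± 0.09) and Snord16a (-0.07 ± 0.08). For Snord91a, barely above the level of 5, all 5 miR-132 values of 4.92 to 5.17 lay below the control mean of 5.20, while 2 controls, at 4.94 and 5.15, lay within that range.

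Among the H/ACA box genes the differences reached furthest on the higher side. Snora19, inside the initiation factor gene Eif3a, read 9.26, 8.34, 8.0, 7.27 and 8.05 with miR-132, against 7.17, 7.61, 7.62, 7.73 and 7.61 in controls. All its miR-132 values but that of replicate 4 exceeded every control. The difference was 0.64 ± 0.31 (SE; limma p of 0.0689, adjusted p of 0.633). Snora30, inside the chromatin remodeller gene Srcap, read 13.09, 11.21, 10.80, 11.77 and 12.37 with miR-132 and 11.05, 11.79, 11.19, 10.32 and 11.34 in controls. Replicates 1 and 5 of miR-132 lay above all controls and the other 3 among them, and the difference of 0.71 ± 0.44 (SE) was the widest of the 64 (limma p of 0.136, adjusted p of 0.685), though without replicate 1 of miR-132 it was 0.40. Snora31, inside Tpt1, read 13.13, 11.44, 11.56, 12.98 and 12.72 with miR-132 and 11.16, 12.85, 11.85, 10.69 and 12.15 in controls, a difference of 0.63 ± 0.48 (SE). Snora47 read 13.63, 13.41, 12.74, 13.76 and 14.16 with miR-132 and 13.26, 13.66, 12.78, 12.98 and 12.81 in controls, a difference of 0.44 ± 0.27 (SE). The groups overlapped in each of these genes. Single arrays weighed on their sizes, with Snora19 at 0.37 without replicate 1 of miR-132, Snora47 at 0.29 without replicate 5 of miR-132 and Snora31 at 0.36 without control replicate 4. On the lower side only Snora78 was among the 12 genes with the smallest p, at 6.02, 5.92, 6.42, 6.08 and 5.90 with miR-132 and 6.18, 6.09, 6.54, 6.14 and 6.33 in controls. It varied little on any array, and its difference was -0.19 ± 0.12 (SE; limma p of 0.146, adjusted p of 0.692).

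Of the small Cajal body RNAs, Scarna17 read 12.14, 10.91, 11.33, 12.46 and 11.28 with miR-132 and 12.93, 13.18, 11.74, 11.29 and 11.93 in controls. Its 2 highest values were both in controls, and the difference was -0.59 ± 0.43 (SE). Scarna9, which guides modification of the U2 RNA in human cells, read 11.50, 9.21, 12.10, 11.45 and 10.32 with miR-132 and 11.22, 10.63, 10.69, 11.25 and 10.76 in controls. It was unlike most snoRNA genes in being highest on replicate 3 of miR-132, and its difference was 0.01 ± 0.49 (SE). Scarna6 (0.45 ± 0.46), Scarna8 (0.29 ± 0.20), Scarna10 (0.24 ± 0.35) and Scarna2 (0.10 ± 0.17), the last a U2 guide with a gene of its own, averaged higher with miR-132 without passing the test.

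The snoRNA genes moved far from array to array within a group. Their median standard deviation over 5 arrays was 0.75 with miR-132 and 0.43 in controls, and 56 of the 64 (87.5%) were wider with miR-132. For the 12719 tested genes above 5 these medians were 0.26 and 0.18, with 70.8% wider with miR-132. In the band of means between 10 and 16, 84.7% of the 1634 tested genes were wider with miR-132, against 90.3% of the 31 snoRNA genes there. Most genes of that brightness were thus wider with miR-132 as well, though by smaller standard deviations. Their medians there were 0.55 with miR-132 and 0.30 in controls, against 0.86 and 0.54 for the snoRNA genes. A standard deviation within groups above 0.5 log2 units was found in 44 of the 64 snoRNA genes (68.8%), against 15.6% of the tested genes above 5. Brighter genes varied more in general. Among the 1634 tested genes with means between 10 and 16 the share was 44.4%, and among the 31 snoRNA genes in that band it was 28 genes or 90.3%. These shares are a description, since the snoRNA genes share arrays and class. The widest were Snord49a (SD within groups 1.12), Snord45b (1.07), Snord61 (1.01) and Snord13 (0.98). Snord49a, for one, read 17.28, 14.97, 16.36, 18.07 and 16.84 with miR-132 and 18.29, 17.96, 16.62, 15.86 and 16.20 in controls.

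The snoRNA genes moved largely together. Expressed as the deviation from its own 10-array mean, the median snoRNA gene stood at 0.58, -0.55, -0.49, 0.60 and 0.01 on miR-132 arrays 1 to 5 and at 0.16, 0.39, -0.21, -0.33 and -0.09 on control arrays 1 to 5. Replicates 1 and 4 of miR-132 and replicate 2 of the controls were thus high, and replicates 2 and 3 of miR-132 and replicates 3 and 4 of the controls low. On miR-132 arrays 1 to 5, 53, 10, 12, 58 and 32 of the 64 genes lay above their own mean, and on control arrays 1 to 5, 43, 51, 12, 6 and 22. Among tested genes above 5 the shares above their own mean were 56.1%, 20.8%, 47.8%, 61.7% and 39.9% on those miR-132 arrays. On those control arrays they were 70.3%, 45.0%, 51.0%, 56.5% and 56.1%. Of the 63 snoRNA genes with a single highest array, 20 (31.7%) had it on replicate 1 and 25 (39.7%) on replicate 4 of miR-132. For tested genes above 5 these shares were 19.9% and 16.7%. Of the 60 snoRNA genes with a single lowest array, 25 (41.7%) had it on replicate 2 and 17 (28.3%) on replicate 3 of miR-132. For tested genes above 5 these shares were 35.8% and 10.9%, so replicate 2 was often the lowest for genes in general.

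**Figure D3:**
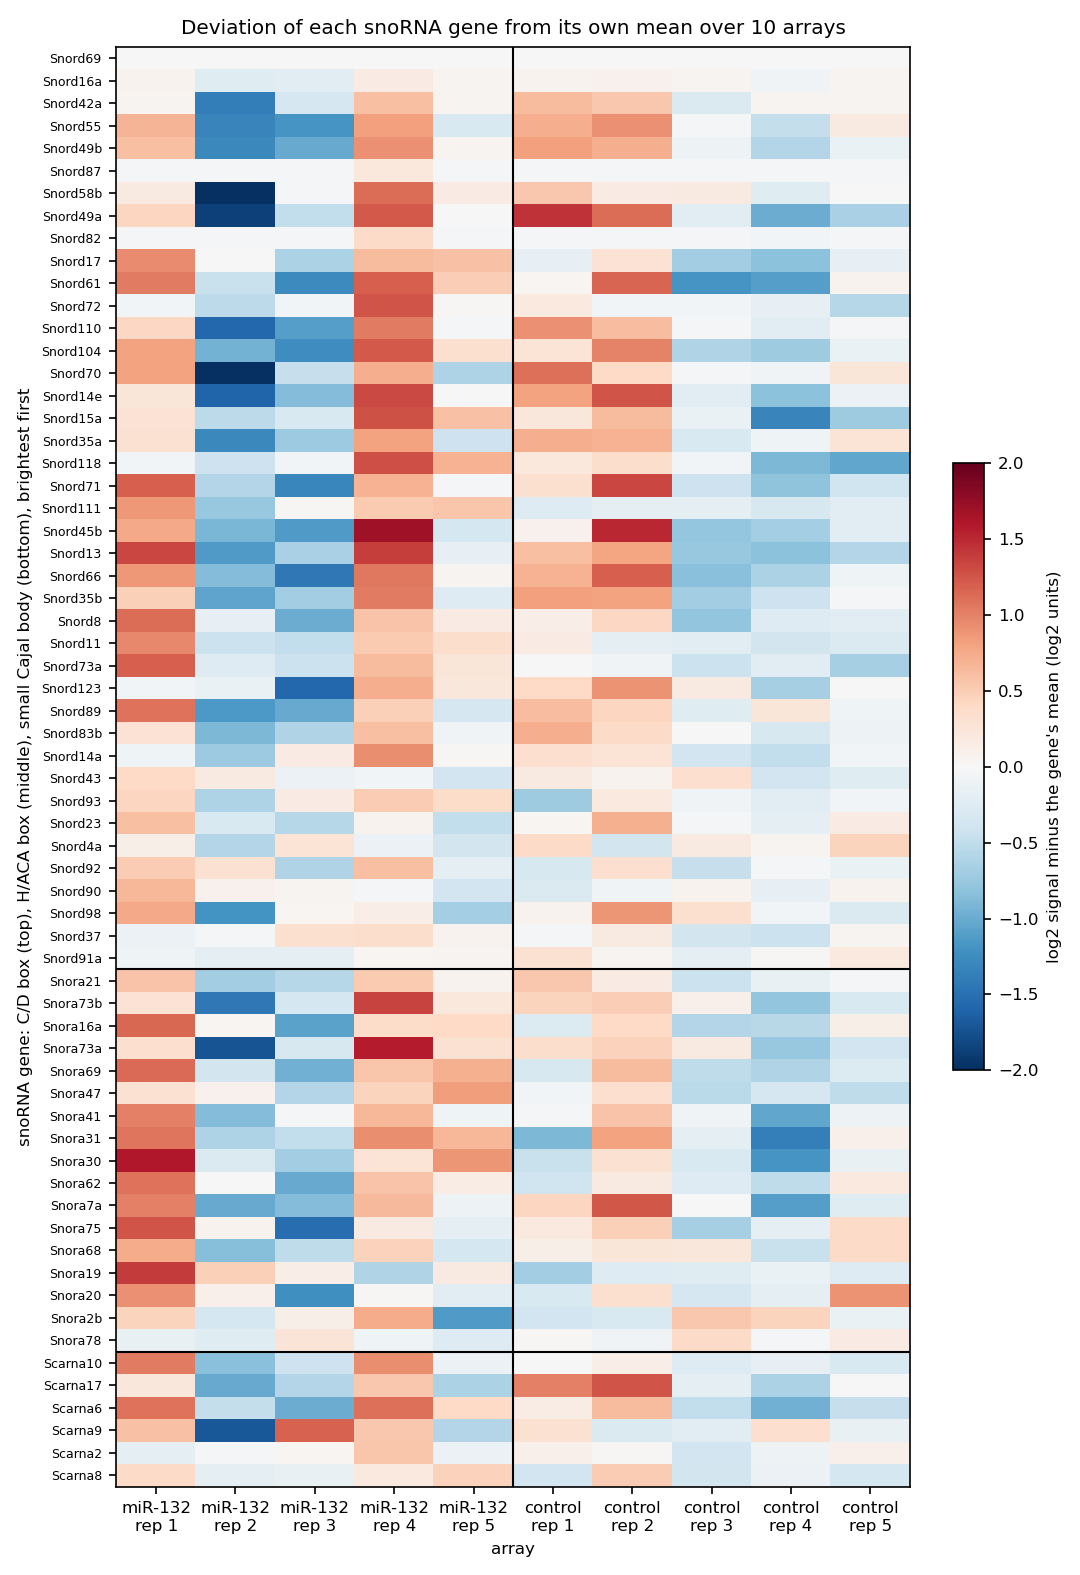
Deviation of each of the 64 snoRNA genes (rows, brightest first within class) from its own 10-array mean on each array (columns, miR-132 left of controls), in log2 units on a colour scale from -2 to 2. Most rows are red on replicates 1 and 4 of miR-132 and on control replicate 2, and blue on replicates 2 and 3 of miR-132.

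The same arrays did not stand out in the same way for other genes. For all tested genes with means between 10 and 16 the median deviation was 0.11, -0.66, 0.05, 0.24 and -0.08 on miR-132 arrays 1 to 5 and 0.25, -0.02, 0.06, 0.01 and 0.06 on control arrays 1 to 5. Replicate 2 of miR-132 was therefore low for bright genes in general. Replicate 3 of miR-132 and replicates 3 and 4 of the controls lay at or above 0 for those genes and below 0 for the snoRNA genes. The snoRNA genes in the same band of brightness stood at 0.87, -0.76, -0.69, 0.80 and 0.05 with miR-132 and 0.20, 0.61, -0.26, -0.63 and -0.15 in controls. A further 237 genes that RefSeq types as snoRNA, mostly with provisional names, had smaller deviations. They were 0.23, -0.24, -0.13, 0.25 and 0.09 with miR-132 and -0.07, 0.17, -0.07, -0.34 and -0.11 in controls. These genes were also dimmer, averaging 7.21 to 7.97 per array, against 11.71 to 13.35 for the snoRNA genes of that band. Between the groups, 60 of the 237 averaged lower and 166 higher with miR-132, with a median difference of 0.15. Of all tested genes above 5, 61.1% averaged lower. An unadjusted limma p under 0.05 was found for 18 of the 237, against 8.13% of all genes tested, and none passed adjustment. The part of RNA recovery, RNA quality and hybridisation in these differences and in the shifts between arrays was not tested.

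Both main classes followed this order of arrays. The median C/D box gene deviated by 0.44, -0.59, -0.48, 0.63 and 0.00 on miR-132 arrays 1 to 5 and by 0.22, 0.39, -0.18, -0.32 and -0.08 on control arrays 1 to 5. The median H/ACA box gene deviated by 1.0, -0.35, -0.57, 0.53 and 0.14 with miR-132 and by -0.06, 0.34, -0.25, -0.51 and -0.10 in controls. Replicate 1 of miR-132 showed the widest gap between the classes, with H/ACA box genes 0.57 above C/D box genes. The H/ACA minus C/D gap averaged 0.15 ± 0.28 with miR-132 (range -0.11 to 0.57) and -0.12 ± 0.11 in controls (range -0.28 to -0.02; SD, n = 5 each), and the ranges overlapped. Within the band of means between 10 and 16, the median difference between the groups was 0.34 for 10 H/ACA box genes (2 lower, 8 higher) and 0.07 for 17 C/D box genes (7 lower, 10 higher). All 1634 tested genes of that band had a median of -0.13. Over all 17 H/ACA and 41 C/D box genes, at any level, the median differences were 0.06 and 0.00. Without replicate 4 of miR-132 these medians over all genes were -0.14 and -0.19. Without replicate 2 of miR-132 they were 0.38 and 0.11, so single arrays set the sign of both. After quantile normalization the H/ACA and C/D medians over all genes of each class were 0.24 and 0.13. In a fit that adjusts for the hybridisation spike-ins they were 0.24 and -0.11.

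**Figure D4:**
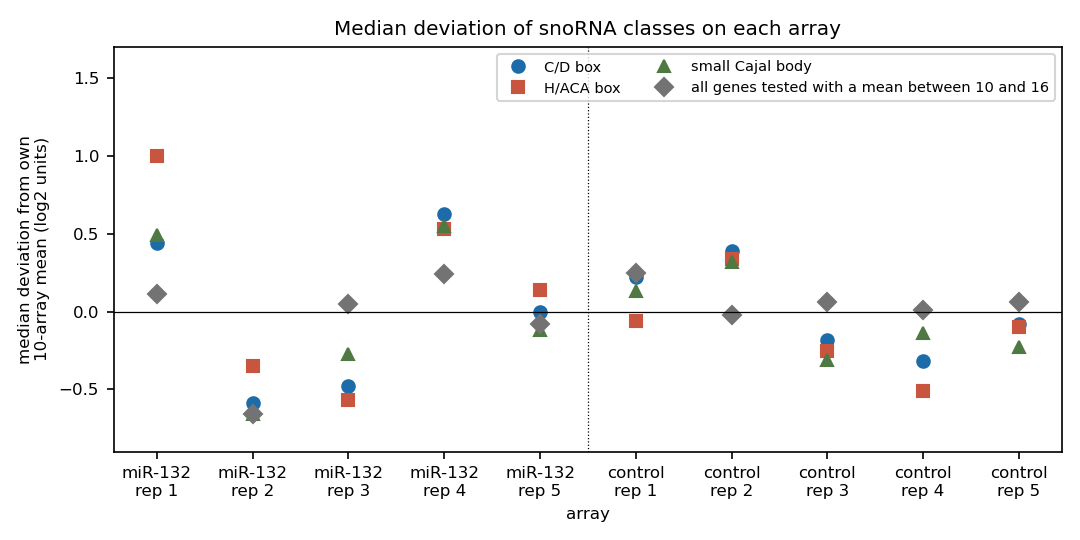
Median deviation from the own 10-array mean (vertical axis, log2 units) of the C/D box, H/ACA box and small Cajal body RNA genes and of all tested genes with means between 10 and 16, on each array (miR-132 left of the dotted line, controls right). The 3 snoRNA classes lie close together on most arrays, with the H/ACA box genes at 1.0 on miR-132 replicate 1, and part from the grey diamonds on miR-132 replicate 3.

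Since most snoRNAs come from introns, each snoRNA gene was set beside the gene that contains it in the RefSeq table. That table gives no strand, so containment rests on position alone. A single containing gene was found for 54 snoRNA genes, several for 6 and none for 4, which were Snord118, Snord13, Snord89 and Scarna2. By kind of containing gene, the 19 snoRNA genes inside ribosomal protein genes had a median difference of -0.12 (12 lower, 7 higher). The 32 inside other protein-coding genes had a median of 0.12 (11 lower, 20 higher). For the 9 inside noncoding genes alone it was 0.02 (4 lower, 5 higher). A protein-coding gene set the kind where a noncoding gene also contained the snoRNA gene. This put Snora78 (Rps2 and Snhg9) with the ribosomal protein genes. Snord87 (Mcmdc2 and Snhg6), Snord71 and Snord8 were put with the other protein-coding genes. C/D and H/ACA box genes inside ribosomal protein genes had medians of -0.20 and -0.08, and those inside other protein-coding genes 0.03 and 0.36.

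For 29 snoRNA genes the containing gene was itself tested, which gave 27 host genes. The snoRNA and its host differed in sign between the groups in 16 of the 29 pairs and shared it in 12. In the 1 remaining pair the host of Snord14e, Hspa8, read the upper limit of 19.93 on every array and so had no sign. Signs were counted at any size, as for the hosts Tpt1 (-0.01) and Rps3a1 (-0.02). The snoRNA varied more than its host within groups in 28 of 29 pairs, with median standard deviations of 0.60 and 0.21 log2 units. The pairs were not matched for level. Besides Hspa8, the hosts Rpl4 and Tpt1 hardly varied, with SDs of 0.04 and 0.02 with miR-132 and 0.00 for both in controls. By their means 19 hosts were lower with miR-132 and 7 higher, beside 61.1% lower among all tested genes above 5. Their median difference was -0.13, against -0.05 for all tested genes above 5 and -0.13 for those with means between 10 and 16. The means of the hosts ran from 4.96 to 19.93, so neither set matched them in level. The 29 snoRNA genes of these pairs had a median of 0.25, against 0.02 for all 64. At an unadjusted limma p under 0.05 stood 5 of the 27 hosts, against 8.13% of all genes tested, and none passed adjustment. Eef2, the elongation factor host of Snord37, averaged 16.63 ± 0.20 with miR-132 and 17.08 ± 0.21 in controls (SD, n = 5 each). Its difference was -0.45 ± 0.12 (SE), whereas Snord37 was at 0.23 ± 0.14. Atg16l1, an autophagy gene and host of Scarna6, averaged 6.51 ± 0.06 with miR-132 and 6.76 ± 0.07 in controls, with a difference of -0.25 ± 0.06 (SE). Eef1b2 with Snora41 inside it and Srcap with Snora30 inside it had hosts lower (-0.33 and -0.34) and snoRNAs higher (0.27 and 0.71) by their means. Zbed3 (0.15) and its Snora47 (0.44) both averaged higher.

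SnoRNA genes that share a host did not always move alike. Nop58 averaged 11.30 ± 0.48 with miR-132 and 10.99 ± 0.26 in controls, a difference of 0.31 ± 0.24 (SE), and holds Snord70 at -0.65 ± 0.52 and Snord11 at 0.37 ± 0.28. Ncl, at -0.21 ± 0.20, holds the C/D box gene Snord82 at 0.09 ± 0.08 and the H/ACA box gene Snora75 at -0.08 ± 0.45. Other shared hosts held snoRNA genes of like sign, as with Snord42a (-0.40 ± 0.34) and Snord4a (-0.27 ± 0.20) inside Rpl23a. So did 2410006H16Rik, with Snord49b at -0.29 and Snord49a at -0.28, and Snhg3, with Snora73b at 0.02 and Snora73a at 0.06. Inside Rpl3, Snord83b was at -0.27 and Snord43 at 0.01. None of these differences passed the test, and Snord82 carried repeated values.

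**Figure D5:**
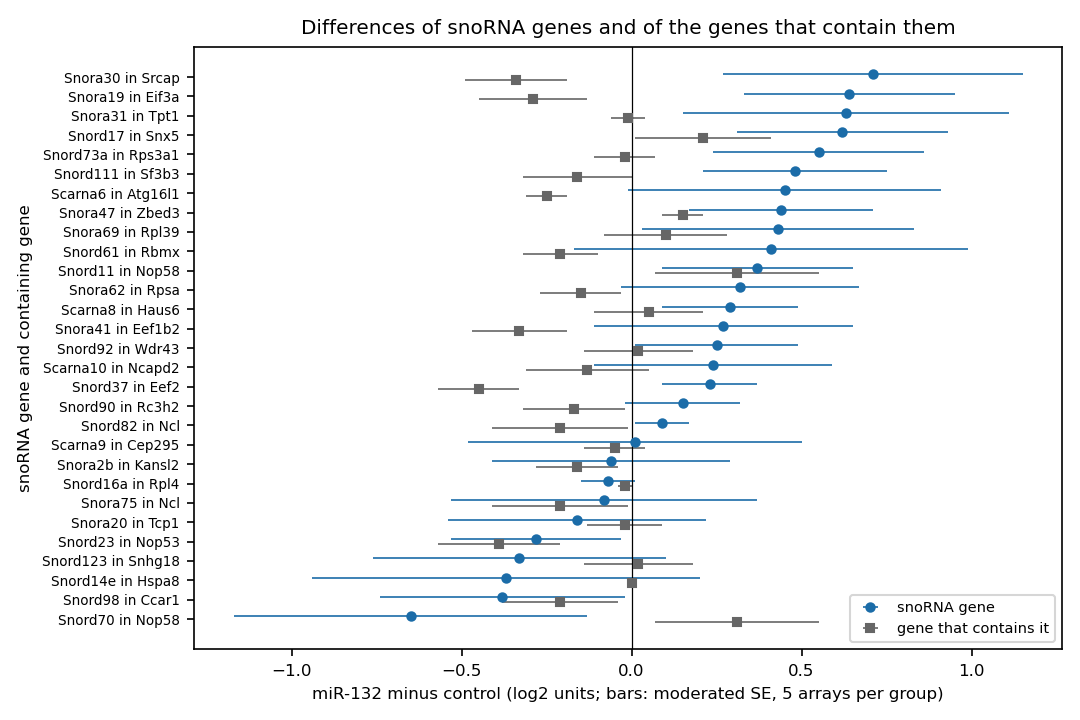
Difference between the groups (horizontal axis, miR-132 minus control, log2 units; bars are moderated standard errors, 5 arrays per group) of each snoRNA gene (blue circles) and of the gene that contains it (grey squares), for the 29 pairs with a tested host. The circles spread from -0.65 to 0.71 and the squares from -0.45 to 0.31, and 16 pairs lie on opposite sides of 0.

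The proteins that build and use snoRNA particles were read from 8 lists of 67 genes, of which 47 were tested. By their means 31 were lower with miR-132 and 16 higher, with a median difference of -0.04. At an unadjusted limma p under 0.05 stood 4 of the 47, against 8.13% of all genes tested, and 0 passed adjustment. Of the C/D core proteins, the methyltransferase fibrillarin (Fbl) averaged 8.70 ± 0.15 with miR-132 and 8.87 ± 0.19 in controls (SD, n = 5 each), a difference of -0.17 ± 0.13 (SE). The other tested C/D core proteins were Nop58, at 0.31 ± 0.24, and Rrp9, at -0.01 ± 0.05. Among the H/ACA core proteins, Nhp2 was at -0.33 ± 0.18 and the pseudouridine synthase Dkc1 at -0.01 ± 0.16, with Nop10 at 0.05 and Gar1 at -0.03. Of the 9 assembly factors 8 averaged higher, beside 44.8% of all genes tested, a share that moves with the scaling as above. First among them was Znhit3 at 0.22 ± 0.06 (limma p of 0.0054, adjusted p of 0.593), whose 5 miR-132 arrays all lay above the control mean.

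All 8 genes of RNA polymerase I transcription and the nucleolus averaged lower with miR-132, with a median of -0.13, and so did 6 of 8 genes of the U3 processome, which matures the small ribosomal subunit, with a median of -0.16. In that list Utp4 was at -0.40 ± 0.18 and Imp4 at -0.27 ± 0.11 (limma p of 0.0361, adjusted p of 0.593). Exosc10, the nuclear exosome enzyme that trims snoRNA ends, was at -0.24 ± 0.09, and Nolc1, which carries snoRNPs between Cajal body and nucleolus, at -0.29 ± 0.12. All 5 miR-132 arrays of Imp4, Exosc10 and Nolc1 lay below the control mean, but none of these differences passed adjustment. The lists were chosen with results of these arrays known. Most of these genes had means below 10, and among all tested genes above 5, 61.1% were lower with miR-132. Over all genes tested the share was 53.8%, and 45.3% after quantile normalization.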

How the data were processed

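Clariom D arrays were summarised by the authors to log2 signals with RMA in Affymetrix Expression Console 1.4, per the submitters' processing notes. The log2 scale of the deposited values follows from their range, which ends at 19.93. No source used here names the genome build. RMA fits each array to a common distribution, which can hide a shift of all genes. The deposited values still differed between arrays. Their medians over all features ran from 4.10 to 4.31, and the distances between the 10th and 90th percentile from 4.41 to 5.03. Of 72688 features, those with 1 gene symbol were used, 1 (the brightest) per gene. The 17359 genes with a mean above 4.17, the median over all features, were tested with limma 3.58.1 in R 4.3.3 (trend on intensity, Benjamini-Hochberg adjustment). The fit was also run on simulated data with independent noise for each gene. Those data had no shifts shared by genes of an array, no repeated values and no upper limit, so they cannot show how the fit behaves with these. SE is limma's moderated standard error and SD the spread over 5 arrays. Named genes are the 8 brightest of each class, the 12 with the smallest p in each direction, those next to the level of 5, the 4 widest and the host genes. The snoRNA genes and the lists were chosen with earlier results of these data known. Host genes come from position in RefSeq, with no strand, although the plan asked for the same strand. No snoRNA sequences or coordinates are printed. The number of arrays limits the precision.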

Additional observations from a re-analysis of the deposited data

Results flagged for a closer look

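In groups of 5 arrays, single values far from the other 4 were looked for in 45 named snoRNA genes and the class medians, 98 groups in all, by Dixon's gap test. Chance alone marks about 1 group in 20, and 5 were marked. Scarna2 read 9.71 on replicate 4 of miR-132, with the other miR-132 arrays at 8.98 to 9.19. Snord87 read 18.05 on the same array, where the other miR-132 arrays all read 17.82. Snora19 read 7.17 on control replicate 1, with the other controls at 7.61 to 7.73, and this array widens its difference between the groups. Snora69 read 14.14 on control replicate 2, with the other controls at 12.90 to 13.23. Snord16a read 19.37 on control replicate 4, with the other controls at 19.49 to 19.52, close to the upper limit of the values. The part of the array or the animal in these values was not tested.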

How the results depend on the processing

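No snoRNA gene passed an adjusted limma p of 0.05 under any of the 19 alternatives; the smallest, 0.182, was that of Snord17 without replicate 3 of miR-132, where 55 genes of the whole array passed. The count at an unadjusted p under 0.05, which was 0, became 4 after quantile normalization (Snord17, Snord111, Snord73a and Snora19), 4 with array weights, 1 with the hybridisation controls as a covariate (Snora19), 1 with the replicate block (Snora78, replicate number as a block) and 3 without replicates 2 and 5 of miR-132 together, an alternative chosen after seeing the data. With single arrays left out it ranged from 0 to 7, the highest without replicate 3 of miR-132. The number of snoRNA genes averaging lower, 28, was 15 without replicates 2 and 5 of miR-132 and ranged from 21 to 36 with single arrays left out. All 24 genes with the smallest p kept their direction with each array left out, but 1 array moved the size of 22 of them by over 1.5 times. Replicate 2 of miR-132 did so for 10 (Snord42a was at -0.10, Snord110 at -0.16, Snord55 at -0.26 and Snord35a at -0.27 without it) and replicate 1 of miR-132 for 6 (Snord11 was at 0.17 without it). Snord118 was at 0.33 without replicate 4 of miR-132 and Scarna17 at -0.35 without control replicate 2. With the hybridisation controls as a covariate Snord37 turned to -0.02, Snord118 to -0.07 and Snord93 to -0.03; without replicates 2 and 5 of miR-132 Snord70 turned to 0.03 and Snord98 to 0.12; after quantile normalization Snord16a was at 0.00. The causes were not tested. Same-numbered arrays correlated by -0.0295 to 0.163, with 2 of 5 pairs over 0.1, and differently numbered ones by -0.301 to 0.34. Of the miR-132 arrays, 1 correlated best with the control of its own number. With so few pairs these values cannot settle pairing. The labels do not state that numbers pair the samples, so they were not taken to do so. With 5 arrays per group and a median standard error of 0.38, small changes of single snoRNA genes could not be seen, nor changes of genes with repeated values.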

Other observations

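Other small structured RNAs were read on the same arrays. The U3 RNA, a C/D box RNA that leads the first cleavages of the ribosomal RNA precursor, carries names (Rnu3a, Rnu3b1 to Rnu3b4) that the selection left out. Rnu3a read 18.99, 18.92, 18.99, 19.64 and 18.99 with miR-132 and 18.99, 19.03, 18.99, 17.50 and 18.76 in controls. It was thus nearly constant apart from a high value on replicate 4 of miR-132 and a low one on control replicate 4, and its difference was 0.45 ± 0.29 (SE; limma p of 0.153, adjusted p of 0.699). Rnu3b1 was likewise lowest on control replicate 4, at 16.39, and highest on replicate 4 of miR-132, at 18.31. Repeated values on other arrays limit what these features can show.

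Rnu12, an RNA of the minor spliceosome, read 9.15, 8.20, 8.15, 9.06 and 8.73 with miR-132 and 8.04, 8.72, 8.09, 7.59 and 8.11 in controls, a difference of 0.55 ± 0.26 (SE; limma p of 0.0625, adjusted p of 0.631). All 5 miR-132 values lay above the control mean of 8.11, but the groups overlapped through control replicate 2. Rnu11, of the same spliceosome, was at 0.16 ± 0.43. The telomerase RNA Terc, an H/ACA RNA, averaged 4.99 ± 0.32 with miR-132 and 4.91 ± 0.16 in controls (SD, n = 5 each).

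Rmrp, the RNA of an endonuclease that acts on the ribosomal RNA precursor, read 18.63 on replicate 2 and 19.79 on replicate 3 of miR-132 and 19.93, the upper limit, on the other 8 arrays. Rn7sk, Rny3 and Rnu1a1 were at that limit on all 10 arrays. The 491 genes above 5 that RefSeq types as spliceosomal RNA had median deviations of 0.03, -0.30, 0.05, 0.32 and 0.02 on miR-132 arrays 1 to 5 and 0.08, 0.07, 0.09, -0.37 and 0.01 on control arrays 1 to 5. They shared with the snoRNA genes the low replicate 2 and high replicate 4 of miR-132 and the low control replicate 4. On replicates 1 and 3 of miR-132 they lay near 0, where the snoRNA genes were at 0.58 and -0.49. Between the groups, 143 of the 491 averaged lower and 316 higher with miR-132, with a median difference of 0.04. An unadjusted limma p under 0.05 was found for 7 of them, against 8.13% of all genes tested.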
